A study of Mus musculus with 4 samples.

Results

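The cyclin and cyclin-dependent kinase genes are 61 of the 24185 named mouse genes on the arrays. They were taken by symbol: cyclins (Ccn followed by 1 letter and a number or no number), kinases and proteins named after them (Cdk and a number), and inhibitors (Cdkn1, Cdkn2 and Cdkn3 symbols). They comprised 24 cyclins, 27 kinases and partners and 10 inhibitor genes, measured with 96 probes on 114 spots per array. Corticohippocampal lysate of 8-week-old male C57BL/6 mice was divided and incubated for 3 h with beads carrying control IgG or CPEB2 IgG, and the RNA left on the beads was labelled with Cy3 and hybridised (RNA immunoprecipitation, RIP-microarray). There were 4 arrays from 2 experiments, 2 arrays per antibody, and the labels give neither a genotype beyond the strain nor another treatment for any of them. The titles, treatment text and methods name CPEB2 for the specific antibody, whereas 1 description field of those samples names CPEB3. How many mice entered each lysate is not given in the sources used here. The comparison asks which mRNAs were recovered with CPEB2 IgG above the level that control IgG recovered.

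Cyclins are regulatory subunits that switch on cyclin-dependent kinases, and Cdkn proteins hold these kinases in check. Some pairs drive the cell division cycle, others phosphorylate RNA polymerase II or its partners, and in neurons, which do not divide, Cdk5 works with the activators p35 and p39 in place of a cyclin. CPEB proteins bind the cytoplasmic polyadenylation element (CPE), a U-rich stretch in the 3′ untranslated region, and cyclin B mRNA in maturing oocytes is a classic mRNA under such control.

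The CPE was searched in the probe sequences as the DNA letters TTTTAT and TTTTAAT, on the sense strand that the 60-mer probes carry. These letters stood in 4.54% of all 55681 probes and in 9 of the 96 member probes (9.38%). Among the probes that stand for a member in the test they were present for 5 of 58, namely cyclin B1, cyclin B2, cyclin G2, Cdk4 and Cdk9. Those windows are shown here because cyclin B is the textbook CPE mRNA and because the 5 genes had different calls. The CPE letters are in capitals, the sequences run 5′ to 3′ as the array annotation gives them, and the places are on mm9: Ccnb1 at chr13:101548730-101548759 (minus strand), Ccnb2 at chr9:70255671-70255700 (minus strand), Ccng2 at chr5:93705134-93705163 (plus strand), Cdk4 at chr10:126504299-126504328 (plus strand) and Cdk9 at chr2:32563026-32563055 (minus strand).
Ccnb1: ctcatttgctgTTTTAATttatacatctga
Ccnb2: tcagatcctgtatgtaTTTTATtctagttt
Ccng2: tgatgacttactTTTTATtagtaagtcaac
Cdk4: tactgggatcttTTTTATacaggaaaacaa
Cdk9: ttaaaaggagaaTTTTATtttgttttgtta

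A probe covers a small piece of its mRNA, so the letters describe that piece and not the whole transcript, and the part of the transcript in which each probe lies was not analysed here. Over all genes tested, the median log2 fold change was 0.54 for the 1132 genes with the letters in the probe and -0.14 for the other 18566, and the median GC content of these probes was 35% and 41.7%. The GC content moved with the letters, and its part in that difference was not tested.

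The arrays were comparable in depth: 68.4 to 74.1% of spots lay well above background, saturation was seen on no spot, and the 75th percentile of the processed signal lay between 418 and 443. Signals were set on a log2 scale relative to that percentile, and each gene was represented by its brightest detected probe. Of the 61 members, 58 were tested, 54 of them well above background on all 4 arrays. Cpeb2 mRNA itself was higher at 2.89 on the log2 scale (SD 0.29, n = 2 experiments, limma adjusted p = 0.00543). Gapdh, which the paper used as a non-target control in RT-qPCR, had -2.52 (SD 0.29, limma adjusted p = 0.00543). Gripap1 encodes GRASP1, and the paper describes its mRNA as one whose translation CPEB2 promotes. It had -1.61 (SD 0.58, limma adjusted p = 0.015), so this described target was lower with CPEB2 IgG. A log2 fold change here therefore does not by itself measure binding by CPEB2. The control IgG arrays occupied positions 1 and 2 of the slide and the CPEB2 IgG arrays the following positions, so position and antibody cannot be told apart.

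Of the 58 members, 20 were higher with CPEB2 IgG (34.5%), 10 were lower (17.2%) and 28 were not called at an adjusted p of 0.05. These counts include Ccne2 (higher) and Cdk1 (lower), which entered the test only through the antibody with which they were brighter. Among all 19698 genes tested, 21.2% were called higher and 20.4% lower. Without the filter on dim probes 6 of 61 members were higher (9.84%) and 5 lower (8.20%), beside 9.37% and 7.60% of all genes, so that the shares of members and of all genes were close. With the filter, the median log2 fold change of the members was 0.51 (0.49 in experiment 1 and 0.50 in experiment 2), beside -0.11 over all genes. Without it the median was 0.51, beside -0.08. Both CPEB2 IgG arrays lay above both control arrays for 30 members, against 33.7% of all genes, and below both for 14 members, against 38.2% of all genes. The sign was the same in both experiments for 47 of the 58 members and opposite for 11. Over all 19698 genes it was opposite for 3996. All 30 called members had the same sign in both experiments. A paired test on 2 experiments rarely calls a gene with opposite signs, so that agreement is no separate support. With the fold and signal thresholds of the study (more than 1.5-fold and a raw signal of over 1000, applied here to either CPEB2 IgG array), and without its criterion of a CPE in the 3′ untranslated region, 18 members passed (31.0%), against 16.4% of all genes. Of these, 17 were also called higher by limma and the other was Cdkn1b. The called log2 fold changes had standard errors of 0.23 to 0.59.

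**Figure D1:**
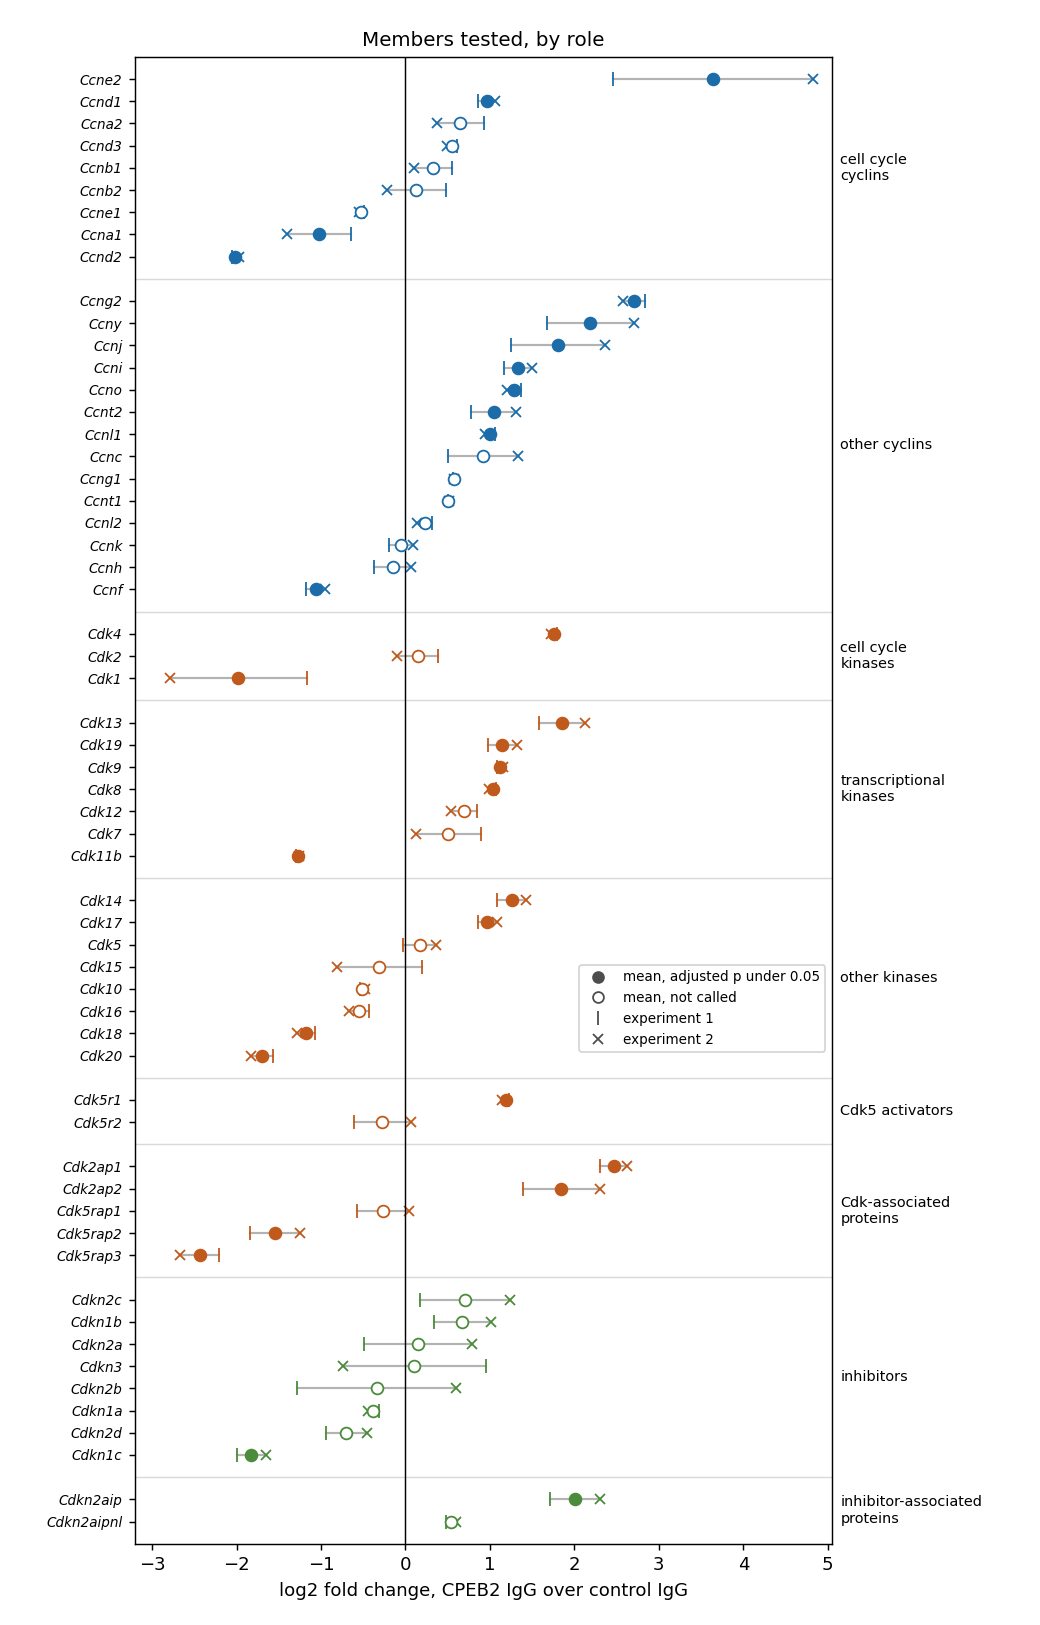
Log2 fold change of the 58 members tested (x axis) in rows grouped by role, with experiment 1 as a bar mark, experiment 2 as a cross and their mean as a circle that is filled where the limma adjusted p was under 0.05. Of the other cyclins 7 of 14 were called higher, of the transcriptional kinases 4 of 7 and of the inhibitors none of 8. Among all genes tested 21.2% were called higher.

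All classes are read beside all genes, of which 21.2% were higher and 20.4% lower, with a median log2 fold change of -0.11. By class, 9 of 23 cyclins tested were higher and 3 were lower, with a median of 0.57. Of the 25 kinases and partners, 10 were higher and 6 were lower, with a median of 0.17. Of the 10 inhibitor genes, 1 was higher and 1 was lower, with a median of 0.13 that was -0.07 in experiment 1 and 0.60 in experiment 2. The medians of the cyclins were 0.56 and 0.51 in the 2 experiments, and those of the kinases and partners 0.38 and 0.12. Kinases, partners and inhibitor genes together numbered 35, of which 11 were higher and 7 lower, with a median of 0.15. The share called higher was close in cyclins (39.1%) and in kinases and partners (10 of 25), and the share called lower was 13.0% and 24.0%. With the GC bins centred the medians of cyclins and of kinases and partners were both 0.44, and with quantile normalization they were 0.52 and 0.40. The difference between the classes was not tested.

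**Figure D2:**
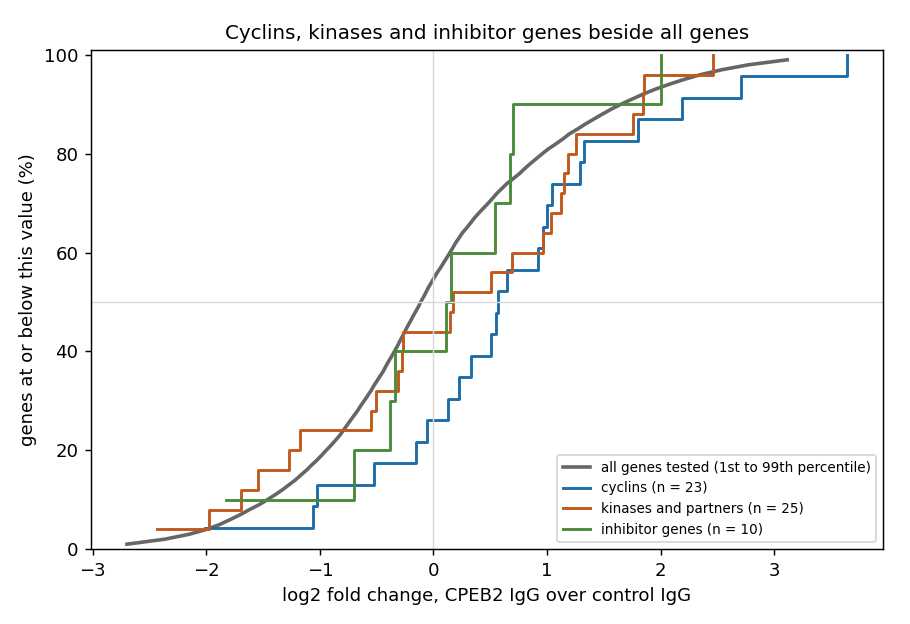
Cumulative share of genes (y axis, %) at or below each log2 fold change (x axis) for 23 cyclins, 25 kinases and partners, 10 inhibitor genes and all genes tested. The cyclin curve crosses 50% at 0.57 and that of all genes at -0.11, and the curves of kinases and of inhibitor genes cross it at 0.17 and 0.13.

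The D-type cyclins, which join Cdk4 and Cdk6 early in the cycle, split in direction. Ccnd1 gave processed signals of 3737 and 3997 on the CPEB2 IgG arrays and of 2177 and 1944 on the control arrays. Its log2 fold change was 0.96 (SD 0.14, n = 2, limma adjusted p = 0.0308), and the arrays of the antibodies did not overlap. With the fold changes centred within bins of probe GC content it was 0.44 and was not called. Ccnd2 gave 616 and 695 with CPEB2 IgG, compared with 2712 and 2779 for the control antibody, so both CPEB2 IgG arrays were far below. The log2 fold change of Ccnd2 was -2.02 (SD 0.06, limma adjusted p = 0.00601), and its probe had a GC content of 51.7%. Ccnd3 gave 3880 and 2865 against 2683 and 2076, higher on both CPEB2 IgG arrays, with a log2 fold change of 0.55 (limma adjusted p = 0.121).

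The B-type cyclins, partners of Cdk1 at mitosis, were dim and did not separate the antibodies. Ccnb1 gave 149 and 97 with CPEB2 IgG, compared with 107 and 92 for the control antibody. Its log2 fold change was 0.56 in experiment 1 and 0.10 in experiment 2 (mean 0.33, limma adjusted p = 0.353). Ccnb2 gave 117 and 81 against 89 and 97, and its sign turned between the experiments, 0.48 and then -0.22 (limma adjusted p = 0.743). The arrays overlapped for both genes, although both probes hold the CPE letters shown above. Ccnb3 was not tested, since its probe was at 3.4 to 3.8 on the 4 arrays and well above background on none.

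Of the A-type cyclins, which act in S phase and at mitotic entry, Ccna2 gave 178 and 149 with CPEB2 IgG, compared with 99 and 117 for the control antibody. The CPEB2 IgG arrays were the higher ones, with a log2 fold change of 0.65 (limma adjusted p = 0.111). The germ line cyclin Ccna1 lay near background, at 18 and 15 against 30 and 41, and on the array of CPEB2 IgG 2 it was not well above it. Its log2 fold change of -1.03 had a limma adjusted p of 0.0455, and 6 of the 10 alternatives that gave it a value no longer called it.

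Of the 2 E-type cyclins, which activate Cdk2 before S phase, 1 was called. Ccne1 gave 1442 and 1551 with CPEB2 IgG, compared with 2155 and 2317 for the control antibody, lower on both CPEB2 IgG arrays, with a log2 fold change of -0.53 (limma adjusted p = 0.131). Ccne2 was weak, at 17 and 102 on the CPEB2 IgG arrays and 3 and 4 on the control arrays, where it was not well above background. CPEB2 IgG was therefore at least 3.38-fold higher (limma adjusted p = 0.0111), counted from the lowest signal that was well above background. Ccne2 entered the test through the CPEB2 IgG arrays alone, so its adjusted p is no separate support for that direction. Without the filter on dim probes Ccne2 was not called (limma adjusted p = 0.0758). The bound was 1.503-fold in experiment 1 and 7.60-fold in experiment 2. The Ccne2 probe had a GC content of 15%.

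Of 4 markers of proliferating cells tested, none was higher and 3 were lower, beside 21.2% and 20.4% of all genes. The lower ones were Mki67 at -1.16, Birc5 at -1.09 and Pcna at -0.96 on the log2 scale. The other, Ube2c, had -0.03, with 0.21 and -0.27 in the 2 experiments (limma adjusted p = 0.94). Their summed signal was 1272 to 1747 on the CPEB2 IgG arrays and 2764 to 3086 on the control arrays, none of them was at 0, and Top2a was not tested. Their part in the values of the cell cycle members was not tested.

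**Figure D3:**
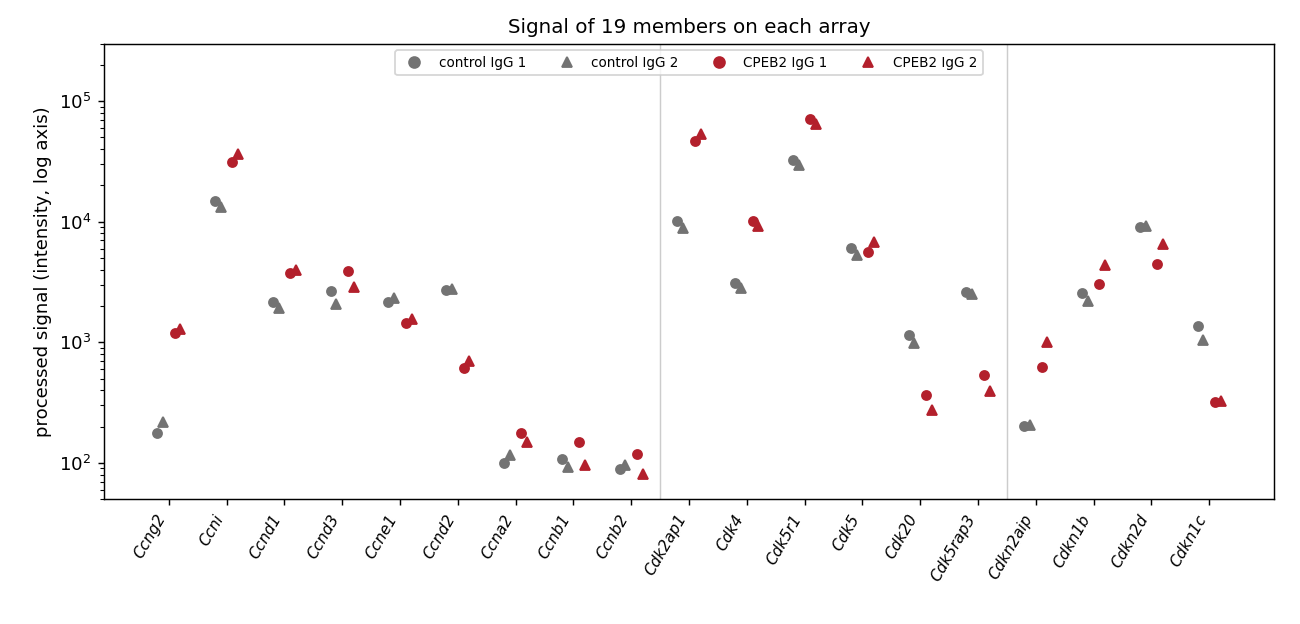
Processed signal (intensity, log axis) of 19 members on each of the 4 arrays, with control IgG in grey and CPEB2 IgG in red, circles for experiment 1 and triangles for experiment 2; vertical lines part cyclins, kinases and partners, and inhibitor genes. The antibodies are well apart for Ccng2, Cdk2ap1 and Cdk4 upward and for Ccnd2, Cdk5rap3 and Cdkn1c downward, and they overlap for Ccnb1, Ccnb2 and Cdk5.

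The other cyclins, those not of type A, B, D or E, held most of the cyclins that were higher. Of these, 7 of 14 were called higher and 1 lower, with a median of 0.96. Over all genes 21.2% were called higher, and 34.5% of those with a probe GC content under 40%. The probes of these cyclins had a median GC content of 35%, and with the GC bins centred their median was 0.66. Ccng2, a cyclin linked to cell cycle arrest, gave 1199 and 1287 with CPEB2 IgG, compared with 178 and 219 for the control antibody. Both CPEB2 IgG arrays were several times above the control arrays, with log2 fold changes of 2.83 and 2.58 (mean 2.71, SE 0.24, limma adjusted p = 0.00543), and the call held under each of the 12 alternatives that were tested. Its relative Ccng1, a p53 target, had 0.57 (limma adjusted p = 0.109).

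Ccny, a membrane-bound cyclin that activates Cdk14 and Cdk16, gave 1574 and 2409 with CPEB2 IgG, compared with 524 and 375 for the control antibody. The arrays did not overlap, and the log2 fold change was 2.19 (SD 0.73, limma adjusted p = 0.00937). Ccnj gave 684 and 1556 against 306 and 308, again without overlap, and had 1.80 (SD 0.79, limma adjusted p = 0.0167). Ccni gave 31369 and 36644 against 14862 and 13237 and had 1.33 (SD 0.23, limma adjusted p = 0.0146). Ccno, known from the formation of multiciliated cells, had 1.29. Ccnf, the substrate-binding part of an SCF ubiquitin ligase, was the only one of these 14 that was lower, at 85 and 106 against 202 and 207 (log2 fold change -1.06, limma adjusted p = 0.0243), and it was not called with median centring.

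Of the division cycle kinases, Cdk4 stood out. It gave 10082 and 9146 with CPEB2 IgG, compared with 3090 and 2822 for the control antibody, and each CPEB2 IgG array lay well above each control array. The log2 fold change was 1.75 (SD 0.05, SE 0.23, limma adjusted p = 0.00716). All 3 Cdk4 probes were higher, at 0.89, 1.59 and 1.75. Cdk2 gave 50 and 36 against 41 and 39 and had 0.14 (limma adjusted p = 0.684). Cdk1, the mitotic kinase, gave 17 and 8 with CPEB2 IgG, not well above background, and 41 and 57 with control IgG. It was at least 2.85-fold lower (limma adjusted p = 0.0242). Cdk1 entered the test through the control IgG arrays alone, so its adjusted p is no separate support for that direction. Without the filter on dim probes Cdk1 was not called. Cdk6 was not tested, with signals of 3.5 to 3.8 on the 4 arrays.

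The transcriptional kinases were higher for 4 of 7 and lower for 1, beside 21.2% and 20.4% of all genes, with a median of 1.03 that was 0.81 with the GC bins centred. Cdk13, which phosphorylates RNA polymerase II together with cyclin K, gave 1377 and 1798 with CPEB2 IgG, compared with 486 and 418 for the control antibody. Its arrays did not overlap, and it had 1.86 (SD 0.38, limma adjusted p = 0.00808). Cdk8 and Cdk19, the alternative kinases of the Mediator complex, had 1.03 (limma adjusted p = 0.0246) and 1.15 (limma adjusted p = 0.0216). Cdk9, the kinase of the elongation factor P-TEFb, gave 7927 and 7555 against 3949 and 3456, with CPEB2 IgG above control on both, and had 1.12 (SD 0.04, limma adjusted p = 0.0199). Cdk9 was not called with the GC bins centred, where it had 0.60. Cdk12 had 0.70 (limma adjusted p = 0.0764) and Cdk7, the kinase of the factor TFIIH, had 0.51 (limma adjusted p = 0.222). Cdk11b, linked to splicing, was lower on both arrays, at 1985 and 2005 against 5143 and 4869 (log2 fold change -1.27, limma adjusted p = 0.0141).

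The cyclins that partner these kinases gave values of their own. Ccnt2, a partner of Cdk9, was higher at 1.05 (limma adjusted p = 0.0328), a call that was lost with the GC bins centred, whereas Ccnt1 had 0.51 (limma adjusted p = 0.142). Ccnl1, a partner of Cdk11, was higher at 1.00 (limma adjusted p = 0.0267), while Cdk11b was lower and Ccnl2 had 0.23. Ccnc, the partner of Cdk8 and Cdk19, had 0.92 (limma adjusted p = 0.0665). It was called in 6 of the 11 alternatives that gave it a value, among them the fit without the replicate block. Ccnc was not called with the GC bins centred, at 0.40, or with the mean of its probes, at 0.43, and its other probe had -0.06. Ccnk, the partner of Cdk12 and Cdk13, had -0.05, and Ccnh, the partner of Cdk7, had -0.15, and the arrays overlapped for both. Calls thus differed for Ccnl1 and Ccnl2 with Cdk11b, Ccnk with Cdk13, Ccnc with Cdk8 and Cdk19, and Ccnt1 with Cdk9. They were the same for Ccnt2 with Cdk9, Ccnk with Cdk12 and Ccnh with Cdk7. The difference within a pair was not tested.

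Cdk5, the kinase of postmitotic neurons, gave 5581 and 6776 with CPEB2 IgG, compared with 6017 and 5352 for the control antibody. These arrays overlapped, and the log2 fold change was 0.17 (limma adjusted p = 0.619). Cdk5r1, the gene of its activator p35, gave 71764 and 64421 against 32407 and 29662, without overlap. It had 1.19 (SD 0.06, limma adjusted p = 0.0172), and its other probe had 1.45. Cdk5r2, the gene of p39, gave 204 and 300 against 330 and 292 and had -0.28, with the arrays overlapping (limma adjusted p = 0.471). None of the 6 neuronal markers tested (Snap25, Camk2a, Slc17a7, Neurod6, Prox1 and Gad1) was called, with a median of 0.03. Among all genes 21.2% were called higher and 20.4% lower.

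The other kinases went both ways, at shares close to those of all genes: 25% were higher and 25% lower, beside 21.2% and 20.4%. Of 8 tested, 2 were higher, Cdk14 at 1.26 (limma adjusted p = 0.0169) and Cdk17 at 0.97 (limma adjusted p = 0.0307). The 2 that were lower were Cdk18 at -1.17 (limma adjusted p = 0.0185) and Cdk20, a kinase of cilia, at -1.70 (limma adjusted p = 0.00795). Cdk20 gave 367 and 275 with CPEB2 IgG, compared with 1150 and 994 for the control antibody, so the CPEB2 IgG arrays were the lower ones. Cdk16, a close relative of Cdk17 and Cdk18, had -0.55 (limma adjusted p = 0.127), and Cdk10 and Cdk15 had -0.51 and -0.31. The probe that stands for Cdk10 is annotated on chromosome 1, whereas RefSeq places the gene on chromosome 8, and the Cdk10 probe on chromosome 8 had -0.79.

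The proteins named after a kinase gave large values in both directions. Cdk2ap1, which binds Cdk2, gave 47184 and 53597 with CPEB2 IgG, compared with 10149 and 8824 for the control antibody. The CPEB2 IgG arrays were far above, with 2.46 (SD 0.23, limma adjusted p = 0.00543), and a second probe had 2.47. Both Cdk2ap1 probes are annotated on chromosome 11, whereas RefSeq places the gene on chromosome 5, so the locus behind this signal is uncertain. Cdk2ap2 gave 4075 and 7069 against 1652 and 1462 and had 1.84 (SD 0.64, limma adjusted p = 0.0121).

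The Cdk5rap genes encode proteins first found by their binding to p35. Cdk5rap3 gave 536 and 393 with CPEB2 IgG, compared with 2624 and 2536 for the control antibody. Both CPEB2 IgG arrays lay far below, and its log2 fold change of -2.44 (SD 0.33, limma adjusted p = 0.00554) was the lowest of the 58 members. Cdk5rap2, a centrosomal protein, gave 110 and 145 against 418 and 349, also without overlap, and had -1.54 (SD 0.42, limma adjusted p = 0.0129). The GC content of the probes of Cdk5rap2 and Cdk5rap3 was 55%, and with the GC bins centred the call was lost for Cdk5rap2 and held for Cdk5rap3. Cdk5rap1 had -0.27 (limma adjusted p = 0.473), and its other probe had -1.69. It was called lower with the mean of its probes, at -0.98 (limma adjusted p = 0.0278), and with the GC bins centred, at -0.79 (limma adjusted p = 0.0445).

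Of the 8 inhibitors, none was higher and 1 was lower, beside 21.2% and 20.4% of all genes. Most genes were not called either, 11504 of all 19698 tested. The median of the inhibitors was -0.12, with -0.40 in experiment 1 and 0.08 in experiment 2, and it was 0.17 with the GC bins centred. Cdkn1c, the gene of p57, gave 321 and 328 with CPEB2 IgG, compared with 1361 and 1046 for the control antibody. Each CPEB2 IgG array was below each control array, and the log2 fold change was -1.82 (SD 0.25, limma adjusted p = 0.00735). Cdkn1b, the gene of p27, gave 3040 and 4416 against 2559 and 2217. It was higher on both CPEB2 IgG arrays, with 0.33 and 1.02 in the 2 experiments (mean 0.67, limma adjusted p = 0.117). Cdkn1a, the gene of p21, gave 796 and 435 against 1047 and 602, with overlapping arrays, and had -0.38 (limma adjusted p = 0.249).

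Among the INK4 inhibitors of Cdk4 and Cdk6, Cdkn2d (p19) gave 4440 and 6599 with CPEB2 IgG, compared with 9042 and 9233 for the control antibody. It was lower on both CPEB2 IgG arrays, with -0.70 (limma adjusted p = 0.0866). Cdkn2c (p18) gave 151 and 230 against 142 and 99 and had 0.70 (limma adjusted p = 0.16). The dim Cdkn2a (30 and 28 against 44 and 17) and Cdkn2b (25 and 63 against 65 and 42) turned sign between the experiments, with means of 0.15 and -0.34. Cdkn3, a phosphatase of Cdk2, did so too, at 48 and 27 against 26 and 46 with a mean of 0.11. The inhibitor-associated Cdkn2aip, which encodes a binding protein of ARF, was the only inhibitor gene that was higher, at 626 and 1012 against 203 and 208 without overlap (log2 fold change 2.01, SD 0.42, limma adjusted p = 0.00736). Its relative Cdkn2aipnl gave 4664 and 5414 against 3530 and 3628, higher on both CPEB2 IgG arrays, and had 0.54 (limma adjusted p = 0.125).

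Members with several probes show how far values differ between probes of 1 gene symbol. Some of the compared probes, as for Ccnc, Cdk14 and Cdkn1a, are annotated to different transcript records. Whether a difference lies between transcripts or between pieces of 1 mRNA was not tested. For 21 members the outermost detected probes lay at least 200 bases apart, and the 3′-most probe had the higher log2 fold change in 16 of them (76.2%), beside 73.8% of 4803 such genes over the array. The median difference, 3′ minus 5′, was 0.62 in the members and 0.59 in all such genes. Detected probes of the same member differed in sign in 10 of the 21 (47.6%, and 41.0% of all such genes): Ccnb1, Ccnc, Ccnl1, Ccnl2, Cdk7, Cdk8, Cdk12, Cdk14, Cdkn1a and Cdkn2aipnl. The 3′-most probe had the lower GC content in 15 of the 21, and its part in the difference was not tested.

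Cdk14 had the widest spread. Its 3′-most probe gave 12548 and 15775 with CPEB2 IgG against 6247 and 5978, and its 5′-most probe, 380870 bases away on the genome, gave 168 and 161 against 868 and 444. These are opposite directions, 1.26 and -1.87 on the log2 scale, for 1 gene symbol but for probes annotated to different transcript records. The 5′-most probe is the one with CPE letters, again in capitals in this window at chr5:5184609-5184638 (mm9, minus strand), shown because it holds the letters and was lower.
Cdk14: gcaaggcatgatTTTTATaaatcaccataa

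For Cdk8 the 3′-most probe had 1.68 and the 5′-most -0.37, and for Ccnl1 they had 1.00 and -0.17. With all detected probes of a gene averaged, Cdk8, Cdk9, Cdk14 and Ccnl1 were no longer called, and 16 members were higher and 11 lower. Both outermost probes had a positive log2 fold change for Ccnd3, Ccnj, Ccnt1, Cdk2ap1, Cdk4, Cdk5r1, Cdk9 and Cdkn1b. Single probes were not tested, and both Cdk2ap1 probes are annotated on another chromosome than the gene.

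**Figure D4:**
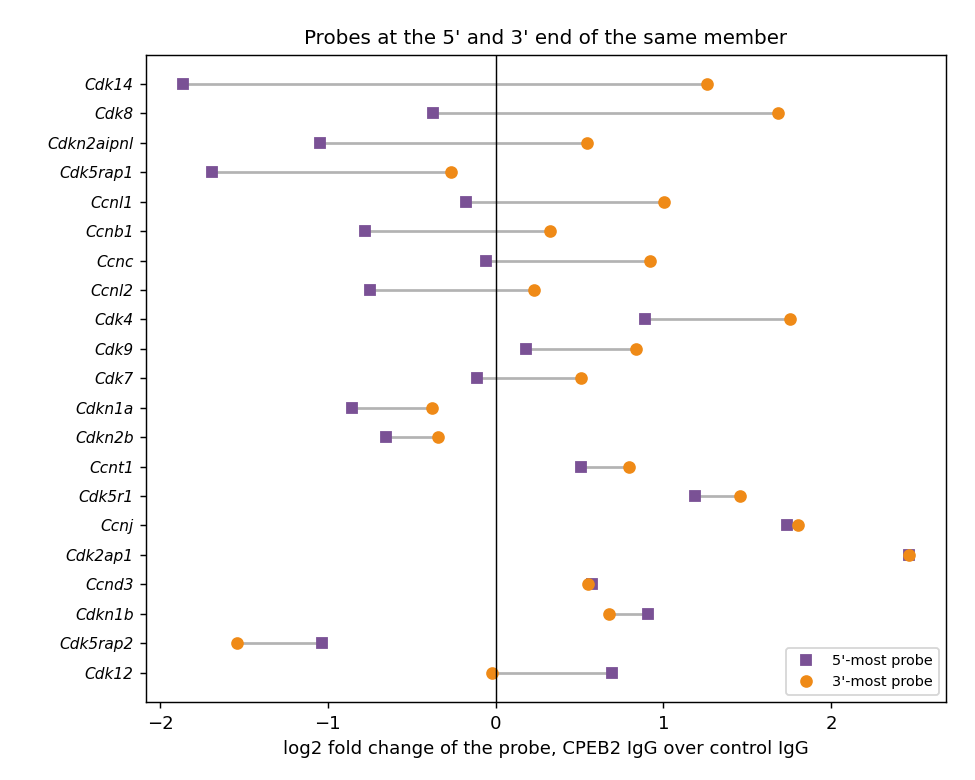
Log2 fold change (x axis) of the 5′-most probe (square) and the 3′-most probe (circle) of the 21 members whose outermost detected probes lay at least 200 bases apart, ordered by the difference. The circle lies right of the square in 16 of the 21, and for Cdk14 the 2 probes are at -1.87 and 1.26.

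Probe composition and brightness also moved with the calls. Of the 30 members whose probe had a GC content under 40%, 12 were higher and 3 lower, and over all genes with such probes 34.5% were higher and 10.8% lower. Of the 28 members at 40% or more, 8 were higher and 7 lower, where 12.7% and 26.5% of all genes were. With the GC bins centred, 21 members were higher and 10 lower (36.2% and 17.2%), beside 22.5% and 19.4% of all genes. The median of the members was then 0.40 beside 0.01 over all genes. Of the 35 members whose signal reached over 1000 somewhere among the 4 arrays, 17 were higher and 6 lower, and over all such genes 33.9% were higher and 25.8% lower. Of the 23 dimmer members 3 were higher and 4 lower, where 12.4% and 16.7% of all genes were, so the dimmer members were called at about the share of all genes.

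Other genes of the division cycle, taken as a list of 48 (regulators of Rb and E2F, Cdc25 and Wee1, the mitotic kinases and checkpoint, replication licensing and Cdk-like kinases), gave 17 higher and 7 lower of 42 tested, with a median of 0.01, beside 21.2% and 20.4% of all genes and their median of -0.11. The retinoblastoma gene Rb1, the substrate of cyclin D kinases, had 1.57 (SD 0.15, limma adjusted p = 0.00908), and Wee1, which inhibits Cdk1, had 1.30 (SD 0.13, limma adjusted p = 0.0141). Skp2, which marks p27 for degradation, had 4.05 (SD 0.37), and Mcm5, a subunit of the replicative helicase, had -2.63 (SD 0.24), both with a limma adjusted p of 0.00543.

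Of markers of the cells that brain lysate can hold, the lists of neurons, oligodendrocytes and endothelium had no call. Both immature neuron markers, Dcx at 1.24 and Sox11 at 2.99, were higher. Of 4 astrocyte markers 1 was higher and 2 lower, and so it was for 4 microglial markers. The shares of all genes were 21.2% higher and 20.4% lower.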

How the data were processed

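RNA recovered with CPEB2 IgG or control IgG was measured on 4 one-colour arrays, 2 per antibody. The authors deposited spot intensities of Agilent Feature Extraction 10.5.1.1 after the software's background correction, with no scaling between arrays; probe places are on mm9, and 60 of the 61 symbols matched names in RefSeq (GRCm38.p6). Marked spots were left out (66 probes dropped), and log2 intensity was taken relative to each array's 75th percentile of 55615 probes. A gene was tested on its brightest probe among those well above background on at least 2 arrays. limma 3.58.1 (R 4.3.3) was fitted over all 19698 genes with the experiment as a block and Benjamini-Hochberg adjustment (threshold 0.05), which leaves 1 residual degree of freedom. The methods state that lysate was divided between antibodies in 2 independent experiments, and arrays of the same number were paired; deviations of same-numbered arrays correlated at 0.203. SD is between the 2 experiments. The number of arrays limits the precision. No source says whether the experiments shared animals, so p-values measure the spread between these arrays.

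Members and lists were chosen with earlier results of these data known. Values on every array were given for the A, B, D and E cyclins, Cdk1, Cdk2, Cdk4, Cdk5, Cdk5r1, Cdk5r2, the Cdkn genes and the 5 largest called changes in each direction, and for a few others (Ccni, Ccnj, Ccnf, Cdk9, Cdk11b, Cdk13, Cdk14, Cdk2ap2 and Cdk5rap2) chosen after their values were seen, as were Rb1, Wee1, Skp2 and Mcm5. On simulated data with 19698 genes, 8000 of them changed, limma called 97.1% of 4-fold and 58.0% of 2-fold changes, and with 200 changed it called none. Alternatives were other scalings and background correction, GC bin centring, other probe filters, the mean of probes, no replicate block, an intensity trend and either experiment left out. Python 3.11.15, numpy 2.4.6, pandas 2.3.3 and matplotlib 3.10.9 were used.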

Additional observations from a re-analysis of the deposited data

How the results depend on the processing

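None of the 30 called members changed sign under the 12 alternatives with a test, and 11 kept their call in each, 6 higher and 5 lower. These counts were not made over all genes. Leaving out the replicate block or adding the intensity trend keeps the log2 fold changes, so no sign could turn there. The same holds under other probe filters for a member that keeps its probe. Of the 28 others, 13 were called under at least 1 alternative (Ccna2, Ccnc, Ccnd3, Ccne1, Ccng1, Ccnt1, Cdk7, Cdk10, Cdk12, Cdk5rap1, Cdkn1b, Cdkn2aipnl and Cdkn2d). With no filter on dim probes 6 members were called higher and 5 lower, 9.84% and 8.20% of 61. Of all 24164 genes 9.37% and 7.60% were (2265 and 1837), so the higher share of members called higher was not seen there. The median of the members stayed at 0.51 in that setting, beside -0.08 over all genes, while fewer genes were called over the whole array. The paired fit with the replicate block was the main one. Without the replicate block 21 members were higher and 10 lower (36.2% and 17.2%), with no call lost, beside 21.6% and 20.3% of all genes. Median centring shifted the median of all genes by 0.23, quantile normalization by 0.13 and GC bin centring by 0.12. With median centring 61.2% of all calls were higher, beside 50.9%. There 24 members were higher and 8 lower (41.4% and 13.8%), beside 26.5% and 16.8% of all genes.

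The median of the members (0.51) was 0.44 with quantile normalization, 0.73 with median centring, 0.45 without scaling, 0.42 with normexp, 0.40 with GC bins centred, 0.53 for probes well above background on all 4 arrays, 0.67 for signals above 1000, 0.18 with the mean of probes, 0.51 with marked spots kept, and 0.49 to 0.50 with an experiment left out. That of the cyclins was 0.52, 0.80, 0.52, 0.53 and 0.44 under the first 5 of these, and 0.51 to 0.56 with an experiment left out. That of kinases and partners was 0.40 with quantile normalization, 0.40 with median centring, 0.44 with GC bins centred, 1.08 for signals above 1000, and 0.12 to 0.38 with an experiment left out. That of the inhibitor genes was -0.03 with normexp, -0.073 with the mean of probes, and -0.071 to 0.60 with an experiment left out. The causes were not tested.

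Among members that were not called, the sign turned with GC bins centred for Ccnb1 (-0.20), Cdk5 (-0.0018), Cdk5r2 (0.024), Cdk10 (0.067), Cdk15 (0.28), Cdk16 (0.069) and Cdkn1a (0.20), with the mean of probes for Ccnb1 (-0.23), Ccnl2 (-0.26) and Cdkn2aipnl (-0.25), with median centring for Ccnh (0.076) and Ccnk (0.17), and with normexp for Cdkn2a (-0.047) and Cdkn3 (-0.013). With either experiment left out it differed for Ccnb2 (-0.22 to 0.48), Ccnh (-0.37 to 0.071), Ccnk (-0.20 to 0.093), Cdk2 (-0.096 to 0.38), Cdk5 (-0.025 to 0.36), Cdk5r2 (-0.61 to 0.061), Cdk5rap1 (-0.57 to 0.039), Cdk15 (-0.81 to 0.19), Cdkn2a (-0.49 to 0.79), Cdkn2b (-1.29 to 0.60) and Cdkn3 (-0.74 to 0.95). Signal over background limits Ccna1, Ccne2, Cdk1, Cdkn2a, Cdkn2b and Cdkn3 most.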

Other observations

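Ccnb3, Cdk6 and Cdk3-ps had no probe well above background on at least 2 arrays and entered no comparison. The Cdk3-ps probe, whose symbol had no match in RefSeq, gave 55 and 5 in the CPEB2 precipitates, compared with 10 and 14 in the controls, with log2 differences of 2.53 in experiment 1 and -1.39 in experiment 2, and it was well above background on 1 array.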
